A study of Mus musculus with 2 samples.

Results

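The fatty acid binding proteins (FABPs) are small cytosolic proteins that carry long-chain fatty acids and related lipids through the water of the cell. The 6 genes Fabp1, Fabp2, Fabp3, Fabp4, Fabp5 and Fabp7 were taken by symbol from tables that hold 43346 gene identifiers, and each matched 1 identifier. They were chosen as members of the family by symbol. The RNA, total RNA over 200 nt in size, came from intestine of B6NCrl mice taken as embryos at 16.5 days. The 2 libraries, replicate 1 and replicate 2, were each made from 10 ng of RNA of a pool of male and female embryos. Replicate 2 came from 41 embryos, and the labels state no number for the other pool. The animals were labelled healthy, no treatment or engineered allele is named, and both pools are listed under the same donor identifier. There is 1 group, so nothing was compared between conditions. The spread between the libraries covers pools and library preparation together.

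Each FABP is known from its own tissues. Fabp1, the liver form, and Fabp2, the intestinal form, are the FABPs of the absorptive cells of the gut, the enterocytes, where they take up fatty acids that enter from the lumen and pass them on to be built into triglyceride. Fabp4 is known from fat cells, from the endothelium of small vessels and from macrophages. Fabp5 is the epidermal form and is also found in endothelium and macrophages, Fabp7 is the form of glia and their progenitors, and Fabp3 is the form of heart and skeletal muscle.

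The libraries held 42040766 and 41480301 expected counts, reads assigned to features by an estimate that divides shared reads. Levels are in TPM, a unit that divides counts by transcript length and scales each library to one total, so that genes can be set beside each other. A value with ± is the average of both libraries with its SD (n = 2). Genes that mark the gut epithelium as a whole, Epcam and Krt8 among them, reached 1 TPM in each library in 7 of 7 cases, as did 7 of 7 smooth muscle, 13 of 13 endothelial, 8 of 8 macrophage and 5 of 5 mesothelial genes.

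All 6 FABP genes were detected, meaning 1 TPM or more in each library, as were 62% of 21474 protein-coding genes. Their order was Fabp1, Fabp2, Fabp5, Fabp4, Fabp7 and Fabp3, the same in both libraries. Both enterocyte members passed 1000 TPM in both libraries, a level that 0.475% of protein-coding genes reached. Fabp5 also passed 100 TPM in both, which 7.47% of protein-coding genes did, and Fabp4, Fabp7 and Fabp3 lay below that level. Rescaled over protein-coding genes that are not mitochondrial, a setting that raised the level of every member, Fabp4 averaged 107 TPM. Fabp1 stood at rank 8 of the protein-coding genes by mean TPM and Fabp2 at rank 51, whereas Fabp3 stood at rank 11366. Fabp1 exceeded Fabp3 1156-fold in replicate 1 and 1489-fold in replicate 2.

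**Figure D1:**
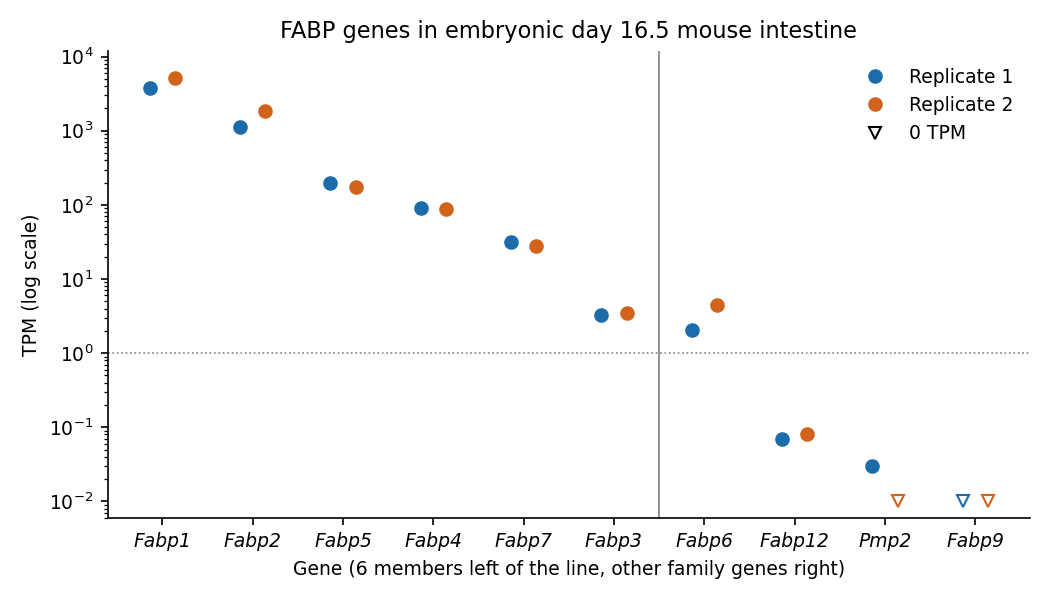
TPM of the FABP genes in each library on a log axis, with 1 point per library and open triangles for a value of 0 TPM. The 6 members, left of the vertical line, run from 3826 and 5228 TPM for Fabp1 to 3.31 and 3.51 for Fabp3, and the dotted line marks 1 TPM.

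Fabp1 and Fabp2 carried nearly all of the family's transcripts. Their summed TPM was 4967 in replicate 1 and 7072 in replicate 2, and that of Fabp3, Fabp4, Fabp5 and Fabp7 was 325 and 294. The enterocyte members thus held 93.9% and 96.0% of the summed TPM of the 6 genes. They exceeded the other members 15.3-fold in replicate 1 and 24.0-fold in replicate 2, a log2 ratio of 4.26 ± 0.46 (SD, n = 2). A ratio was called apart if its log2 value was on one side of 0 in each library and its average was over 3 SD from 0, which held here. The 6 genes together made up 0.529% and 0.737% of all TPM.

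Fabp1 (ENSMUSG00000054422.7, mm10 chromosome 6, 71199827 to 71205023, plus strand) stood at 3826 TPM in replicate 1 and 5228 in replicate 2, or 4527 ± 991. Fabp2 (ENSMUSG00000023057.5, chromosome 3, 122895072 to 122899506, plus strand) stood at 1141 and 1844 TPM, or 1492 ± 497. Both were higher in replicate 2, and for both the intervals of TPM that the authors deposited did not overlap between the libraries. The deposited intervals of Fabp1 ran from 3719 to 3784 in replicate 1 and from 5084 to 5161 in replicate 2. They surround a posterior mean that lies slightly below the TPM value.

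Fabp1 exceeded Fabp2 in both libraries, 3.35-fold in replicate 1 and 2.83-fold in replicate 2. Without division by length the ratio was smaller, a log2 value of 0.69 ± 0.17 in counts scaled to library size against 1.62 ± 0.17 in TPM, and both were called apart. The effective length of the Fabp1 transcript is 454 bases and that of Fabp2 866, and Fabp2 gave 29064 and 45624 counts where Fabp1 gave 51111 and 67807. The annotated leader before the coding sequence accounts for part of this length, with 341 bases in Fabp2 and 100 in Fabp1. The start of Fabp1 differs by 52 bases between the GENCODE and RefSeq annotations, and that of Fabp2 does not differ. Whether the whole annotated leader of either gene is transcribed in this tissue was not tested.

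The enterocyte markers give the scale of these levels. Fabp1 lay above all 14 of them in both libraries and Fabp2 above 12, the exceptions being Apoa1 (3197 ± 637) and Apoa4 (2047 ± 807), which coat lipoprotein particles. Of the 14, 13 were detected, led by those apolipoproteins and by Mttp (414 ± 101), which loads lipid onto apolipoprotein B. The lowest was the trehalase gene Treh at 0.10 ± 0.042. Fabp1 is also a gene of hepatocytes, and the hepatocyte list was present at a lower level: 9 of 10 were detected, with Afp at 230.2 ± 64.5, Ttr at 88.7 ± 0.983 and Alb at 62.3 ± 39.7 highest and Tat lowest at 0.015 ± 0.0071. Fabp1 lay above all 10 in both libraries, 42.3-fold and 153-fold above Alb and 13.9-fold and 28.3-fold above Afp.

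**Figure D2:**
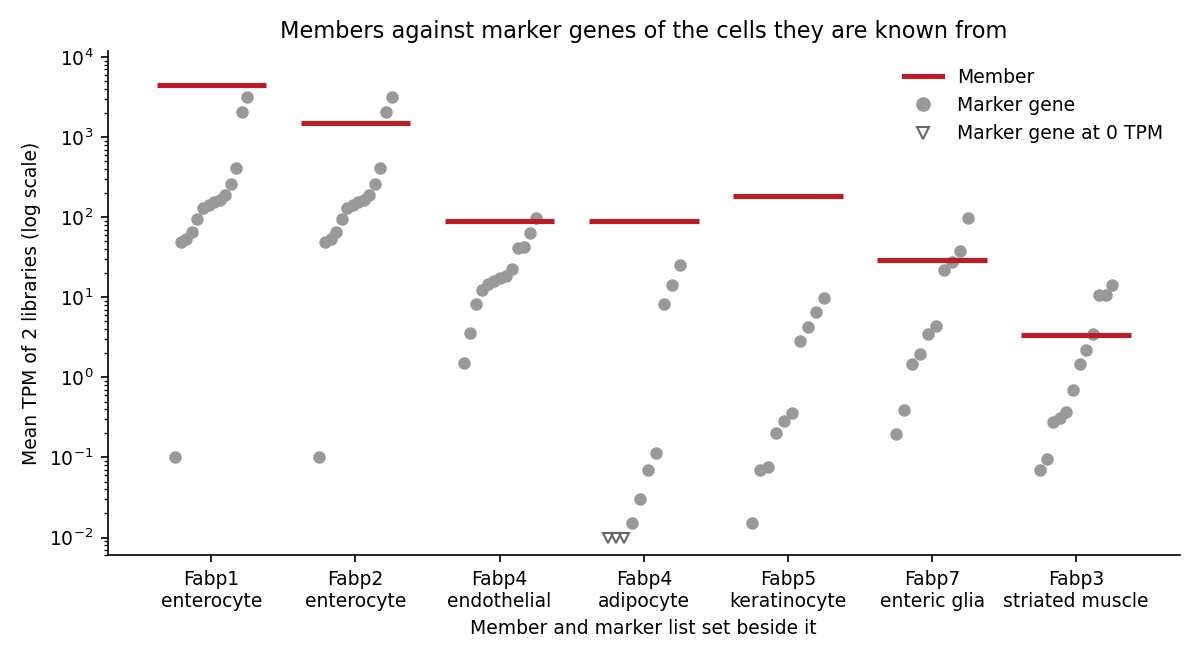
Mean TPM of each member (red line) and of the marker genes set beside it (grey points, open triangles at 0 TPM) on a log axis. Fabp1 lies above all 14 enterocyte markers, and Fabp4 lies within the upper range of the 13 endothelial markers while 7 of the 10 adipocyte markers lie below 1 TPM in both libraries.

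Fabp1 and Fabp2 were the members that differed most between the pools. Fabp2 was 1.62-fold and Fabp1 1.37-fold higher in replicate 2. Past 1.5-fold in that direction stood 1 of 6 members, Fabp2, and 2.36% of 13509 protein-coding genes averaging 1 TPM or more. More than 25% higher in that direction stood 2 of 6, Fabp1 and Fabp2, and 7.84% of those genes. No member was more than 25% or 1.5-fold higher in replicate 1, where 5.23% and 1.67% of those genes were. The pools are replicates of 1 group with 1 library on each side, so these folds carry no p-value.

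Marker lists differed between the libraries in direction and degree. All 13 enterocyte markers averaging 1 TPM or more were higher in replicate 2, with a median of 1.40-fold and a range of 1.17-fold to 1.77-fold, and the 14 listed summed to 5679 and 8245 TPM. The 7 genes of the epithelium as a whole had a median of 1.02-fold and a range of 0.923 to 1.08, and summed to 4358 and 4303 TPM. The 9 hepatocyte genes were all lower in replicate 2, with a median of 0.669-fold, and the 10 listed summed to 640.0 and 429 TPM. Striated muscle markers were higher in replicate 2 in 5 of 6 cases, with a median of 1.32-fold and 2 past 1.5-fold. Of all 13504 protein-coding genes with a ratio, 6302 were higher in replicate 2 and 7156 in replicate 1, with a median of 0.99-fold. Relative to Epcam, an adhesion protein of the gut epithelium as a whole, Fabp1 stood at 4.66-fold and 6.41-fold and Fabp2 at 1.39-fold and 2.26-fold in replicates 1 and 2. In a bulk sample, more enterocytes and more RNA per enterocyte cannot be told apart, and the part of the marker shifts in the Fabp1 and Fabp2 differences was not tested.

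**Figure D3:**
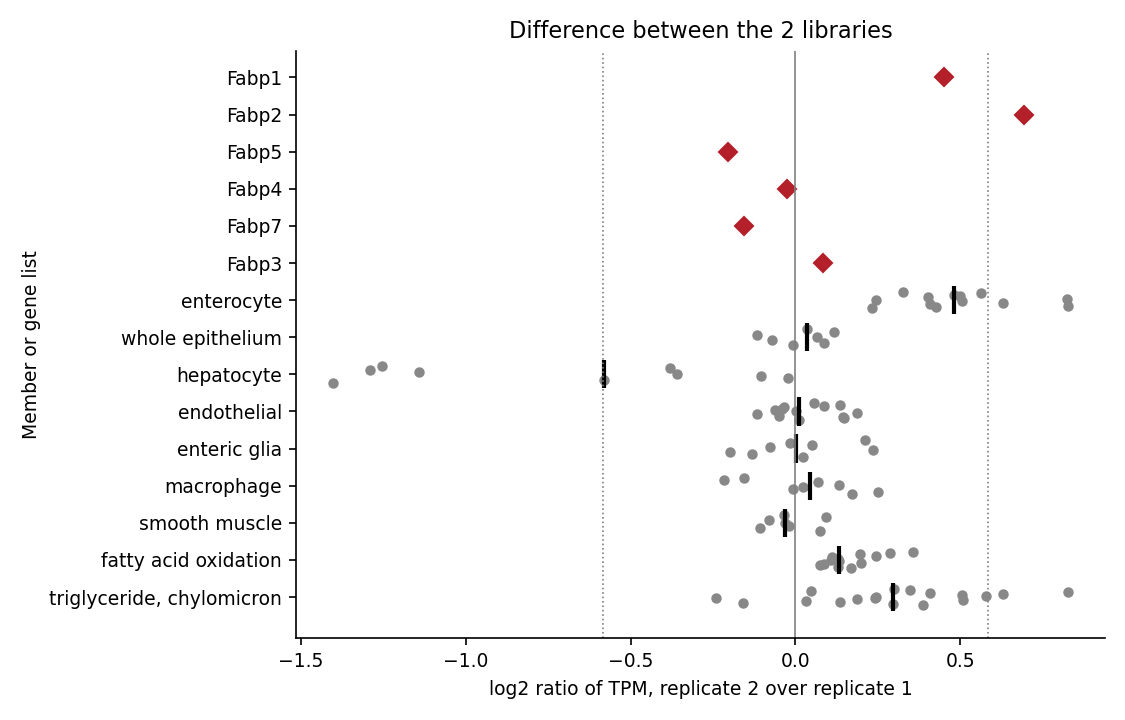
Log2 ratio of TPM between replicate 2 and replicate 1 for each member (red diamonds) and for the genes of 9 lists averaging 1 TPM or more (grey points, black bar at the list median), with dotted lines at 1.5-fold. Fabp2 at 0.69 and Fabp1 at 0.45 lie on the side of the enterocyte markers, and the other members lie between -0.20 and 0.08.

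The promoters of these genes are shown because they are the members that moved together. The stretches lie directly upstream of the annotated start on the plus strand, from RefSeq, build GRCm38.p6: chr6:71199629-71199826 for Fabp1, which ends where the GENCODE transcript begins, 52 bases before the RefSeq start, and chr3:122894822-122895071 for Fabp2. Capitals mark matches on either strand to the 6 searched motifs, which are TTTAT (core of CDX sites), GATAA (GATA factors), GTTAAT (part of HNF1 sites), AGGTCA (half-site of nuclear receptors), CAAAG (within many HNF4 sites) and TATAAA.
Fabp1: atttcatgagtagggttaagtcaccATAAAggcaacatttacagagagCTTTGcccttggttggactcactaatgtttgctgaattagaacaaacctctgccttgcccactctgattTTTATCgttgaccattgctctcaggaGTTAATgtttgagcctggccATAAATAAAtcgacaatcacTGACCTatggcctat
Fabp2: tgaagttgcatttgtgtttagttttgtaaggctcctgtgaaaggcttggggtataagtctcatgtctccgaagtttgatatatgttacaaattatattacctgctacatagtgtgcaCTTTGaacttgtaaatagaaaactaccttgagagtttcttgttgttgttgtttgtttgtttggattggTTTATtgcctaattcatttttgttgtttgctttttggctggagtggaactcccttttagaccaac

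In the 250 bases before the RefSeq start, Fabp1 held 5 matches to TTTAT, a motif present at least once in 37.3% of 32851 promoters of that length. It held 1 match to GATAA (22.6% of promoters), 1 to GTTAAT (6.43%), 2 to AGGTCA (14.02%), 1 to CAAAG (48.6%) and 1 to TATAAA (12.4%). Each share is of promoters with at least 1 match. The share with 5 matches to TTTAT, or with 2 to AGGTCA, was not counted. The TATAAA match began 30 bases before the RefSeq start. TATAAA contains TTTAT on the other strand, so 1 of the 5 TTTAT matches came with it by construction. The GATAA match overlapped another TTTAT match. The TATAAA match, the TTTAT match over it and the AGGTCA match 9 bases before the start lie downstream of the printed stretch. Fabp2 held 1 match each to TTTAT and CAAAG, at 65 and 133 bases before the start, and none to the other 4 motifs in this window. No promoter sequence was available for Fabp4 and Fabp5. Of the remaining members, Fabp3 held 1 match to CAAAG and Fabp7 1 to AGGTCA. A match is a run of letters and not a measured binding site.

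Of 23 genes for factors known to regulate FABP genes in some tissue, 20 were detected. The highest were Creb3l3 (130 ± 34.3), a membrane-bound factor of liver and gut, and the nuclear receptors Hnf4g (86.6 ± 10.7) and Hnf4a (74.6 ± 1.04). Among the PPAR receptors, which bind fatty acids, Ppara stood at 26.3 and 31.8 TPM, Pparg at 11.6 and 11.4 and Ppard at 1.56 and 1.54. Pou3f2, a neural factor, had 0 counts in both libraries. Of the 20 detected genes, 13 were higher in replicate 2 and 7 in replicate 1, with none past 1.5-fold in either direction and a median of 1.11-fold.

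Fabp4 (ENSMUSG00000062515.3, chromosome 3, 10204088 to 10208576, minus strand) was the steadiest member, at 90.7 TPM in replicate 1 and 89.1 in replicate 2, or 89.9 ± 1.12. The libraries overlapped in the deposited intervals, and the direction of this small difference turned under scaling by spike-ins. Of the 10 adipocyte genes, 7 were below 1 TPM in both libraries. Adipoq, which encodes the hormone adiponectin, had 1 and 0 counts, Plin1, the coat protein of the fat cell's lipid droplet, had 2 and 1, and Lep, Ucp1 and Cfd had 0 in both libraries, where a count of 0 allows up to 3. Fabp4 itself had 2226 and 2124 counts. The other 3 were detected: the lipid droplet gene Cidec at 25.3 ± 6.34, the gluconeogenic enzyme gene Pck1 at 14.4 ± 3.45 and the lipase gene Lipe at 8.37 ± 0.948. All 3 were higher in replicate 2. The summed level of the list was 40.8 and 55.8 TPM.

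Endothelial genes were detected in 13 of 13 cases, most of them at a lower level than Fabp4 (median 17.5 TPM), with Egfl7 at 97.3 ± 5.501, Plvap at 63.97 ± 5.84 and Esam at 42.1 ± 0.057 highest and the lymphatic factor Prox1 lowest at 1.53 ± 0.042, and the list summed to 358 and 361 TPM. Fabp4 lay above 12 of the 13 in both libraries and below Egfl7 in both, and the difference from Egfl7 was not called apart. It was 2.203-fold and 2.15-fold above Pecam1, the adhesion molecule of endothelial junctions, and 5.96-fold and 5.29-fold above Cdh5, the cadherin of those junctions, and both were called apart. Its ratio between libraries, 0.982, lay within the endothelial range of 0.923 to 1.14 and equally within those of the macrophage (0.86 to 1.19), smooth muscle (0.929 to 1.07), epithelial (0.923 to 1.08) and enteric glial lists (0.871 to 1.18). Gpihbp1, which anchors lipoprotein lipase on capillary endothelium, stood at 28.7 and 25.5 TPM and Cd36, a fatty acid receptor of endothelium and enterocytes, at 30.2 and 41.9. Macrophage genes were detected in 8 of 8 cases and summed to 251 and 245 TPM, led by Lyz2 (77.1 ± 8.21), C1qb (65.7 ± 0.721) and C1qa (51.7 ± 0.177), with Mrc1 lowest at 4.14 ± 0.269. Fabp4 lay above all 8. The share of Fabp4 that came from endothelium or from macrophages was not tested.

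Fabp5 (ENSMUSG00000027533.10, chromosome 3, 10012548 to 10016607, plus strand) stood at 199.8 TPM in replicate 1 and 173 in replicate 2, or 187 ± 18.6. It was 1.15-fold higher in replicate 1, and its deposited intervals did not overlap. It exceeded Fabp4 2.203-fold and 1.95-fold, a log2 ratio of 1.05 ± 0.13, and fell short of Fabp2 by a log2 ratio of 2.96 ± 0.63, both called apart. Keratinocyte genes were low. Of 10, 4 were detected, with the cornified-layer gene Sbsn at 9.95 ± 0.212 and the keratins Krt14 at 6.50 ± 0.368 and Krt10 at 4.22 ± 0.255 highest. The basal keratin Krt5 had 18 and 7 counts, Trp63, the master factor of stratified epithelium, had 11 and 2, and the cadherin gene Dsg3 was lowest at 0.015 ± 0.0071. The list summed to 26.0 and 23.1 TPM. Fabp5 lay above all 10 keratinocyte genes, all 13 endothelial genes and all 8 macrophage genes in both libraries, and which cells supplied it was not tested.

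Fabp7 (ENSMUSG00000019874.7, chromosome 10, 57784881 to 57788450, plus strand) stood at 31.2 and 28.0 TPM, or 29.6 ± 2.26, with overlapping deposited intervals. It is known in the gut from enteric glia and their neural crest progenitors. Genes of enteric glia were detected in 8 of 10 cases and summed to 196 and 197 TPM. The endothelin receptor gene Ednrb (97.0 ± 3.64), the small heat shock gene Cryab (38.3 ± 0.332) and the neuregulin receptor gene Erbb3 (27.6 ± 3.15) were highest. Sox10, the defining factor of the lineage, stood at 4.36 and 4.43 TPM, so that Fabp7 exceeded Sox10 7.16-fold and 6.33-fold. Foxd3 and Gfap were below 1 TPM in both libraries, with Gfap lowest at 0.195 ± 0.18. Fabp7 lay above 7 of the 10 genes in both libraries.

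Fabp3 (ENSMUSG00000028773.8, chromosome 4, 130308595 to 130315463, plus strand) was the lowest member, at 3.31 and 3.51 TPM, or 3.41 ± 0.14, from 70.4 and 72.6 expected counts. Exact 95% Poisson intervals of the rounded counts were 54.6 to 88.4 and 57.2 to 91.8, so the libraries could not be told apart at this depth. Fabp3 was 8.68-fold below Fabp7, a log2 ratio of 3.12 ± 0.17. Striated muscle genes were low as well. Of 12, 6 were detected. The contractile genes Mylpf (14.3 ± 1.71) and Acta1 (10.8 ± 1.99) and the creatine kinase gene Ckm (10.8 ± 1.16) led them, the muscle lineage factor Myod1 was lowest at 0.070 ± 0.042, and the list summed to 42.2 and 47.5 TPM. The cardiac genes Myh6 and Nppa were below 1 TPM in both libraries. Fabp3 lay above 8 of the 12 in both libraries and below Ckm, Mylpf and Acta1 in both. It was above Tnni2 (3.01 and 4.00 TPM) in replicate 1 and below it in replicate 2.

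Fabp3 and Fabp5 were the members whose reads were shared with copies of the gene. Their processed pseudogenes, inserted copies of the mRNA, contain exact stretches of 100 bases of the transcripts, 157 such stretches in Fabp3-ps1 for Fabp3 and 80 and 25 in Gm6166 and Gm14328 for Fabp5. Fabp3-ps1 received 13.6 and 13.4 counts, and with Fabp3 the sums were 84 and 86, so 16.2% and 15.6% of the pooled reads were assigned to the pseudogene. For Fabp5 the sums with both pseudogenes were 5402 and 4539, whole numbers again, and the pseudogenes held 0.496% and 0.572%. Fabp1, Fabp2, Fabp4 and Fabp7 had whole counts and shared no stretch of that length with a transcript of another gene. The low value of Fabp3 therefore depends on how the reads it shares with Fabp3-ps1 were divided, and the size of that uncertainty was not tested. The last exon of Fabp3 also overlaps the antisense gene Zcchc17 by 81 bases, at 50.5 and 47.7 TPM, and the sources used here do not state whether counting used strand. The antisense gene 4933405D12Rik spans Fabp2 but shares no exon base with it and had 8 and 9 counts.

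All 5 neighbouring pairs in the order of levels were called apart, and all 15 pairs of members were. No p-value accompanies these calls, because an exact 2-sided sign-flip test of 2 libraries cannot go below 0.5.

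The remaining family genes were low. Fabp6, the ileal bile acid binding protein, stood at 2.06 and 4.42 TPM from 23 and 48 counts, with exact 95% Poisson intervals of 14.6 to 34.5 and 35.4 to 63.6. It was 2.15-fold higher in replicate 2, the direction of Fabp1 and Fabp2. Fabp12 had 2 and 1 counts, Pmp2, a FABP of peripheral myelin, had 1 and 0, and Fabp9, a testis form, had 0 in both, where a count of 0 allows up to 3.

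Fabp5, Pmp2, Fabp9, Fabp4 and Fabp12 lie within 289 kb of chromosome 3. Fabp5 and Fabp4, which lie 187 kb apart, stood at 187 and 89.9 TPM in the mean, whereas Pmp2 and Fabp9, located between them, and Fabp12, beyond Fabp4, did not exceed 0.08 TPM in either library.

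**Figure D4:**
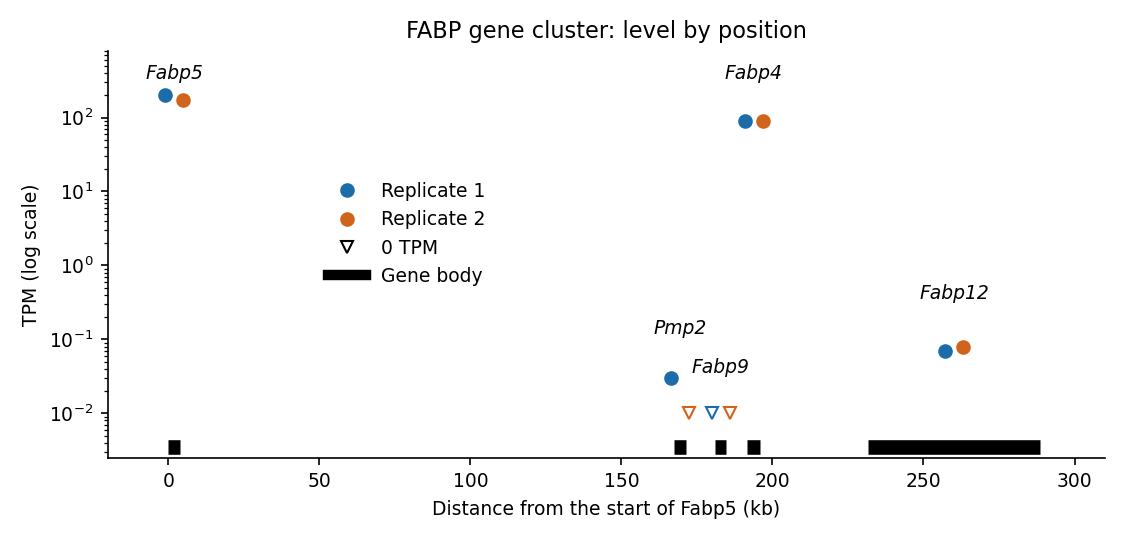
TPM of the 5 cluster genes in each library on a log axis against their distance from the start of Fabp5 in kb, with gene bodies as black bars and open triangles at 0 TPM. Fabp5 and Fabp4 lie between 89 and 200 TPM and the other 3 genes at or below 0.08.

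The members share a gene structure more than a sequence. All 6 have 4 exons, and the second coding exon is 173 bases long in all 6. Neither trait is particular to them. That exon is also 173 bases long in Fabp9, Fabp12 and Pmp2, against 176 in Fabp6. It is 179 bases long in the retinoid binding relatives Rbp2, Rbp7, Crabp1 and Crabp2. Fabp6, Fabp9, Pmp2 and these relatives have 4 exons too. Coding sequences run from 381 bases in Fabp1 to 405 in Fabp5. Over the 15 pairs of members, the share of identical columns in a global alignment of coding sequences ran from 48.4% to 66.4% with a median of 51.0%. Fabp3 and Fabp7 were the closest members at 66.4%, then Fabp3 and Fabp4 at 65.1%. Fabp1 and Fabp2, which share a cell type, were 48.7% identical. The closest relative of Fabp1 among the 14 other genes aligned was Fabp6 at 58.0%, and that of Fabp4 was Pmp2, of the same chromosome 3 cluster, at 71.2%.

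**Figure D5:**
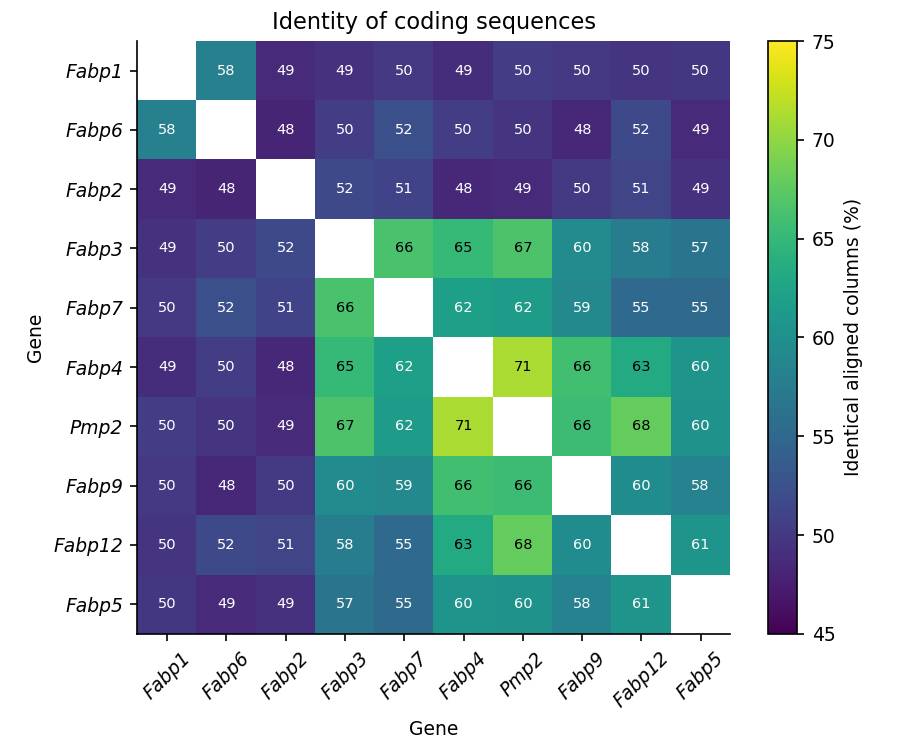
Identical columns, in percent of the alignment, between the coding sequences of 10 FABP genes in pairs, with each gene along both axes. Fabp3, Fabp7, Fabp4, Pmp2, Fabp9, Fabp12 and Fabp5 lie between 55.3 and 71.2 with each other, and Fabp2 does not exceed 51.6 with any of the others.

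The retinoid binding relatives, carriers of vitamin A and retinoic acid, were measured beside the FABPs. Rbp2, the retinol carrier of enterocytes, stood at 640.6 and 958 TPM and was 1.496-fold higher in replicate 2. Fabp2 over Rbp2 was 1.78 and 1.92 in the libraries. Crabp1 stood at 8.36 and 7.72 TPM, Crabp2 at 3.22 and 3.26 and Rbp7 at 1.90 and 1.62. No value was taken for Rbp5, whose symbol had no match.

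Genes that act before and after the FABPs were present as well. In fatty acid uptake, 11 of 11 genes were detected, led by Got2 (238 ± 1.08), a mitochondrial transaminase also described as a fatty acid binder, Cav1 (165 ± 5.501) and the transporter Slc27a4 (42.9 ± 8.74), with Slc27a5 lowest at 1.26 ± 0.22. None was past 1.5-fold in either direction, and the median was 0.994-fold. In activation to acyl-CoA, 10 of 11 were detected, led by the acyl-CoA binding protein gene Dbi (1670 ± 135) and the synthetases Acsl5 (365 ± 89.5) and Acsl3 (88.0 ± 10.6), with Acsbg1 lowest at 0.45 ± 0.45 and a median of 1.05-fold. Dbi, which carries acyl-CoA as FABPs carry free fatty acids, lay between Fabp1 and Fabp2 in the mean and in replicate 1, and below both in replicate 2.

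In triglyceride synthesis and chylomicron assembly, 18 of 20 were detected. Of these 18, 16 were higher in replicate 2, with 2 past 1.5-fold and a median of 1.23-fold, and Mogat1, which acts outside the gut, was lowest at 0.030 ± 0.042. The highest genes of this list, Apoa1, Apoa4 and Mttp, are also on the enterocyte list, as are Apob and Dgat1. The 2 past 1.5-fold were Apoa4 and Apob, so they repeat values of the enterocyte list. Over all protein-coding genes, as given above, fewer were higher in replicate 2 than in replicate 1. In fatty acid oxidation, 13 of 14 were detected, led by Acaa2 (641 ± 61.6), Hadh (344 ± 40.9) and Hadhb (302 ± 16.4), and all 13 were higher in replicate 2 with a median of 1.09-fold and none past 1.5-fold. The muscle form Cpt1b was lowest at 0.515 ± 0.15. In lipolysis, 5 of 6 were detected, led by Mgll (55.1 ± 0.877), Pnpla2 (38.7 ± 0.035) and G0s2 (19.3 ± 3.14), with Plin1 lowest and a median of 0.978-fold.

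The genes nearest to each member in level over the 2 libraries, by distance of log2(TPM + 0.1), were of mixed kinds. Only protein-coding genes that are neither members nor mitochondrial were searched. Nearest to Fabp2 were the pancreatic amylase genes Amy2a3 (1128 and 1692 TPM) and Amy2a5 (1221 and 1646), near-identical copies whose split of reads is uncertain. Nearest to Fabp1 were Ppia (4656 and 4453) and the globin gene Hbb-bs (4969 and 4217), which has close copies, both lower in replicate 2. Ripk2 and Tubg2 were nearest to Fabp3, Poldip3 and Trappc3 to Fabp4, Snrpd1 and Ppa1 to Fabp5 and Armcx2 and Atf1 to Fabp7. Likeness over 2 libraries of 1 group rests on 2 values per gene.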

How the data were processed

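Per the file headers and the notes deposited beside them, reads were assigned to GENCODE M4 transcripts on mm10, while the sources used here name no aligner, quantifier or version. The authors' expected counts are estimated reads per feature and not normalised. In the deposited TPM values, counts are divided by effective length and each library is brought to one total that includes the spike-ins. FPKM, as deposited, is proportional to TPM within a library, the deposited percent values give a transcript's share of its gene, and the deposited interval of TPM, a signal range, has no stated level. Of 43346 gene identifiers, 42462 (98.0%) matched GENCODE M21, the source of symbols and coordinates. Features that name no gene held 0.000147% and 0.000157% of counts and were left out, and spike-ins held 1.81% and 1.74%.

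No test was run, since there is 1 group. Folds used TPM without a pseudocount. The labels give biological replicate numbers for separate pools, so the libraries were counted as 2 replicates. Their counts differed by more than counting noise (over 18089 genes, chi-square averaged 20.6 for each degree of freedom, with a median of 2.50), so they are not 1 library deposited again. Motifs, shared stretches and alignments were computed with Python 3.11.15 and Biopython 1.88, scaling alternatives with edgeR 4.0.16 (TMM) and DESeq2 1.42.0 on rounded expected counts of at least 10. Counting intervals and floors cover counting error only, since reads are not independent molecules. Intervals are 2-sided, and the floor of 3 counts for a count of 0 is a one-sided bound. The members, gene lists and alternatives were chosen with earlier results of these data known. Named genes were the 6 members, their relatives, the 3 highest and the lowest gene of each list and the 2 genes nearest to each member. Other marker genes and regulators given by value (Sox10, Foxd3, Krt5, Trp63, Adipoq, Lep, Ucp1, Cfd, Pecam1, Cdh5, Epcam, Tnni2, Myh6, Nppa, Gpihbp1, Cd36, the PPAR genes) were chosen after their values were seen. Results for some listed genes are not reported here.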

Additional observations from a re-analysis of the deposited data

How the results depend on the processing

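No paired analysis was possible because all libraries belong to 1 group. Of 101 values under alternatives, 1 changed direction and 13 moved by more than the spread of the libraries or past the limit for counts. Most of the 13 were levels given in FPKM or rescaled to another total, which changes the unit, so the tally does not measure stability. With 2 libraries, leaving out either moves a mean by less than 1 SD by construction, which says nothing about stability. The summed level of the members was 4388 in FPKM against 6329 in TPM and 7561 rescaled over protein-coding genes that are not mitochondrial, and ran from 5292 to 7366 with either library left out. The enterocyte members over the others ran from a log2 ratio of 3.93 to 4.59 with either library left out, and stood at 3.62 without division by length. That ratio was 4.25 with the reads of 3 pseudogenes added back, an alternative chosen after seeing the data. All 5 neighbouring pairs kept their order, and all 6 members stayed detected, with posterior means. With either library left out both results follow by construction, since each call already required both libraries. At a minimum of 10 TPM, 5 of the 6 members were detected. The count of members apart between libraries was 0 at a minimum of 2-fold and 2 at a minimum of 25%, against 1 at 1.5-fold, because the minimum itself changed. With a pseudocount of 1 TPM, TMM, DESeq2 size factors or spike-in scaling it was 1. Fabp4 turned from a log2 ratio of -0.03 to 0.00887 between libraries under spike-in scaling, and the cause was not tested. Depth limits Fabp3 and Fabp6.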

Other observations

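Transcripts that keep an intron were a small part of Fabp4 and Fabp5. Fabp4-202 held 1.12% and 1.13% of Fabp4 in TPM and 5.56% and 5.57% of its counts, since that transcript is 4231 bases long against 896 for Fabp4-201. Fabp5-202 held 1.18% and 1.00% of Fabp5 in TPM and 4.05% and 3.46% of its counts. The second coding form of Fabp7, Fabp7-202, held 0.83% and 0.90% of TPM from 5.96 and 5.62 counts. Fabp1, Fabp2 and Fabp3 have a single annotated transcript in the tables.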
